A study of Mus musculus with 12 samples.

Results

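The Meg3-side miRs described here are 10 mature miRs cut from 6 hairpins at the Meg3 end of the imprinted Dlk1-Dio3 domain, upstream of Mir431. Other annotated miR genes of the same stretch (Mir1906-1, Mir3544 and Mir3070a) and the 5p arms of Mir540 and Mir665 are not among them. The members were chosen by name and position, as the entries mmu-miR-770-5p, mmu-miR-770-3p, mmu-miR-673-5p, mmu-miR-673-3p, mmu-miR-493-5p, mmu-miR-493-3p, mmu-miR-337-5p, mmu-miR-337-3p, mmu-miR-540-3p and mmu-miR-665-3p (mmu, mouse, is left out hereafter). These are 10 of the 1927 entries of the count table, and all 10 were among the 388 miRs with enough reads to be tested. miR-seq, which reads RNAs of the length of a mature miR, was done on whole livers of female fetuses at E18.5, late in gestation, with 1 library per fetus. The WT group held 5 fetuses. The Mir483Pat-KO group held 7 littermates in which Mir483, a miR gene inside Igf2, was deleted on the chromosome inherited from the father. The mice were on a C57BL/6J background, and the deletion was constitutive, made in C57BL/6N embryonic stem cells, of which 2 clones were injected, by Cre given in culture. Which clone each fetus descends from is not given in the sources used here.

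In the Dlk1-Dio3 domain the paternal chromosome expresses the protein-coding genes Dlk1, Rtl1 and Dio3. The maternal chromosome expresses the noncoding RNAs Meg3, anti-Rtl1, Rian and Mirg, and the many miRs and small nucleolar RNAs embedded in them. A miR hairpin is cut into a 5p and a 3p arm, and usually one arm is kept by an Argonaute protein while the other is lost. The kept arm finds its targets mostly by its seed, bases 2 to 8.

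All 6 hairpins lie on the plus strand of chromosome 12 (GRCm38) in a span of 22716 bases. Mir770 (chr12:109563692-109563785) sits inside Meg3 (chr12:109541001-109571726), in an intron of the annotated transcripts Meg3-207, Meg3-208 and Meg3-211 and over an exon of Meg3-209. Mir673 (chr12:109571990-109572080) starts 263 bases past the annotated end of Meg3. Mir493 (chr12:109580233-109580315) follows 8152 bases later. The last 3 hairpins, Mir337 (chr12:109585789-109585885), Mir540 (chr12:109586080-109586146) and Mir665 (chr12:109586314-109586407), fall within 619 bases. Mir431, the first of the miRs antisense to Rtl1, starts 4039 bases after Mir665.

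The mature sequences, shown because the seed sets which transcripts a miR can pair with and because sequence decides whether a read can be told from that of another miR, are given from RefSeq (GRCm38.p6), 5′ to 3′, with the seed in capitals. All 10 members had a RefSeq entry.
miR-770-5p: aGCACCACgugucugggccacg
miR-770-3p: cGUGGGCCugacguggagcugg
miR-673-5p: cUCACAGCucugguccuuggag
miR-673-3p: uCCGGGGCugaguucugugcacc
miR-493-5p: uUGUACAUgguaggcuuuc
miR-493-3p: uGAAGGUCcuacugugugccagg
miR-337-5p: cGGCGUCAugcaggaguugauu
miR-337-3p: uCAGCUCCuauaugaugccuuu
miR-540-3p: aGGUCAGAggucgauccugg
miR-665-3p: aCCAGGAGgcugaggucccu

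The 10 members had 10 distinct seeds, so no pair of them forms a seed family. Only 4 began with U. miR-673-5p shared its seed with miR-6985-3p and miR-540-3p shared its seed with miR-6915-5p, and both of those other miRs had 0 reads in all 12 libraries. The other 8 seeds were found in no other mature mouse miR of RefSeq. No member shared a run of 16 bases with another mature miR, so the reads of each member could be told from those of every other listed miR. One neighbour lies on the opposite strand: miR-3544-3p covers 17 bases of miR-337-5p and had 0 to 15 reads per library.

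Between 711810 and 1211160 reads per WT library and between 658665 and 921068 per Mir483Pat-KO library were counted on miRs. The deletion was seen in miR-483-3p, at 1070 CPM in WT and 15.2 CPM in Mir483Pat-KO on average (CPM, reads scaled to the library's TMM-adjusted total, as for all levels here), and hepatocyte miR-122-5p was at 118494 to 169645 CPM in every library. Of 8 marker miRs of hepatocytes, erythroid cells, leukocytes and vascular and mesenchymal cells, all were read in every library and 6 had a higher mean in Mir483Pat-KO. The widest differences were in erythroid miR-144-3p, at 2455 to 4577 CPM in WT and 3264 to 5091 CPM in Mir483Pat-KO, and mesenchymal miR-199a-3p/199b-3p, at 792 to 1483 CPM and 1074 to 2059 CPM. Their part in the members' levels was not tested. In whole liver, fewer cells that express a miR and fewer molecules per cell cannot be told apart. Together the members made up 0.221% to 0.272% of the reads of a WT library and 0.248% to 0.287% of those of a Mir483Pat-KO library. Their summed level was 2413.5 ± 129.9 CPM in the WT group (SD, n = 5), compared with 2662 ± 168 CPM in the Mir483Pat-KO group (SD, n = 7), and was not tested.

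Over all 12 libraries 25875 reads fell on the 10 members, unequally. miR-673-5p took 27.2% of them, miR-540-3p 23.1% and miR-665-3p 19.4%. miR-337-5p added 12.4%, miR-493-5p 6.43%, miR-337-3p 5.12% and miR-770-5p 3.34%, while miR-770-3p, miR-493-3p and miR-673-3p took 1.14%, 1.06% and 0.823%. For Mir540 and Mir665 only the 3p arm is a member. The 5p arm of Mir540, miR-540-5p, was read at 351.6 to 596 CPM, while miR-665-5p had 10 reads in 1 Mir483Pat-KO library and 0 in the other 11.

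**Figure D1:**
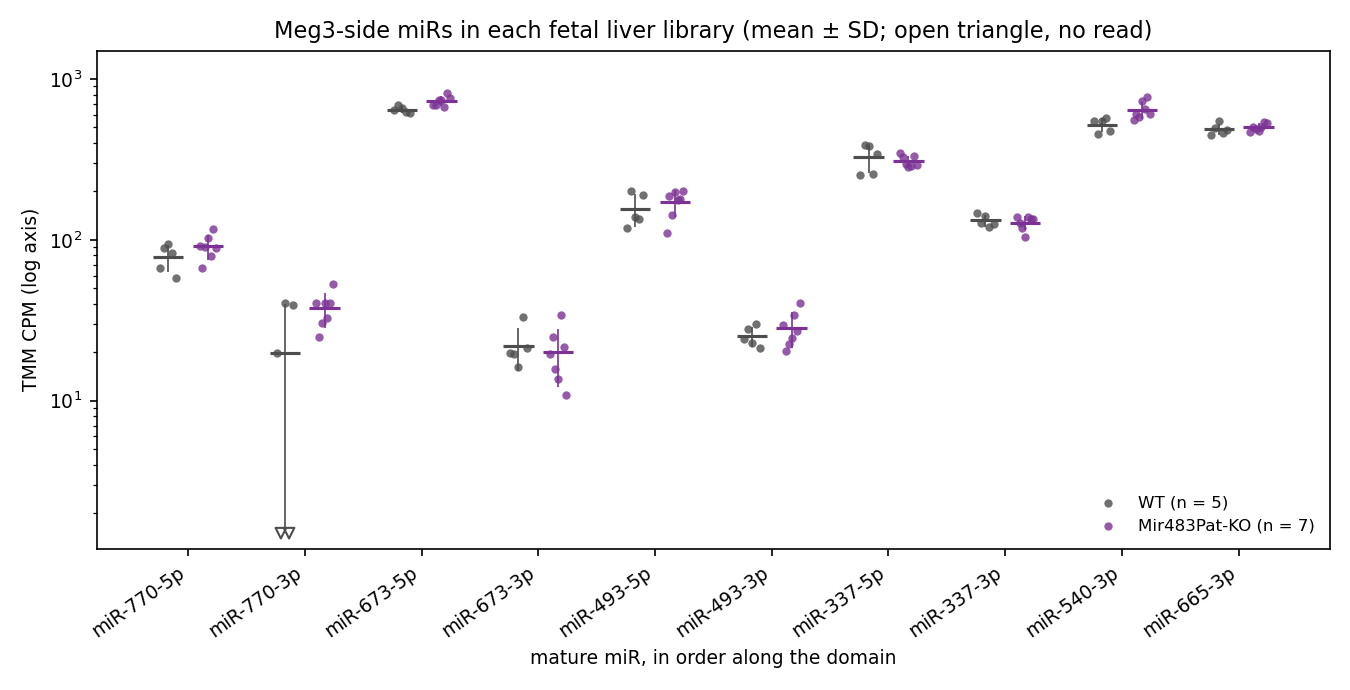
TMM CPM on a log axis of each Meg3-side miR in each library, in order along the domain, with WT in grey (n = 5) and Mir483Pat-KO in purple (n = 7), bars for mean ± SD and open triangles for libraries with no read. Mean levels in Mir483Pat-KO run from 20.05 CPM for miR-673-3p to 730.2 CPM for miR-673-5p, the genotypes overlap for every miR, and 2 WT libraries hold no read of miR-770-3p.

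Ranked by the mean of the libraries' log2 levels, the order from high to low was miR-673-5p, miR-540-3p, miR-665-3p, miR-337-5p, miR-493-5p, miR-337-3p, miR-770-5p, miR-493-3p, miR-770-3p and miR-673-3p. Of the 9 pairs of neighbours in this order, 7 passed the test of their difference within libraries (two-sided exact sign-flip test over 12 libraries, Benjamini-Hochberg adjusted over the 9 pairs). The pairs and the direction of each difference were set by the same 12 libraries. miR-673-5p exceeded miR-540-3p by 0.24 ± 0.17 on the log2 scale (SD, n = 12) in 12 of 12 libraries (exact p = 0.000488, adjusted p = 0.000879), the smallest p this test can give. miR-540-3p exceeded miR-665-3p by 0.24 ± 0.21 in 9 of 12 libraries (SD, n = 12, exact p = 0.00391, adjusted p = 0.00586), and miR-493-5p exceeded miR-337-3p by 0.32 ± 0.38 in 9 of 12 (exact p = 0.0190, adjusted p = 0.0245). The largest steps were 1.59 from miR-770-5p to miR-493-3p and 0.95 from miR-337-5p to miR-493-5p, each in 12 of 12 libraries. The 3 lowest miRs were not separated: miR-493-3p against miR-770-3p was higher in 4 of 12 libraries (adjusted p = 0.576) and miR-770-3p against miR-673-3p in 7 of 12 (adjusted p = 0.881, exact sign-flip test), with miR-770-3p at 0 reads in 2 libraries. By edgeR's average log2 CPM, used for ranks within the domain, miR-770-3p (4.99) stood above miR-493-3p (4.87). These are orders of read levels, and how evenly the library chemistry captured the different sequences was not tested.

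**Figure D2:**
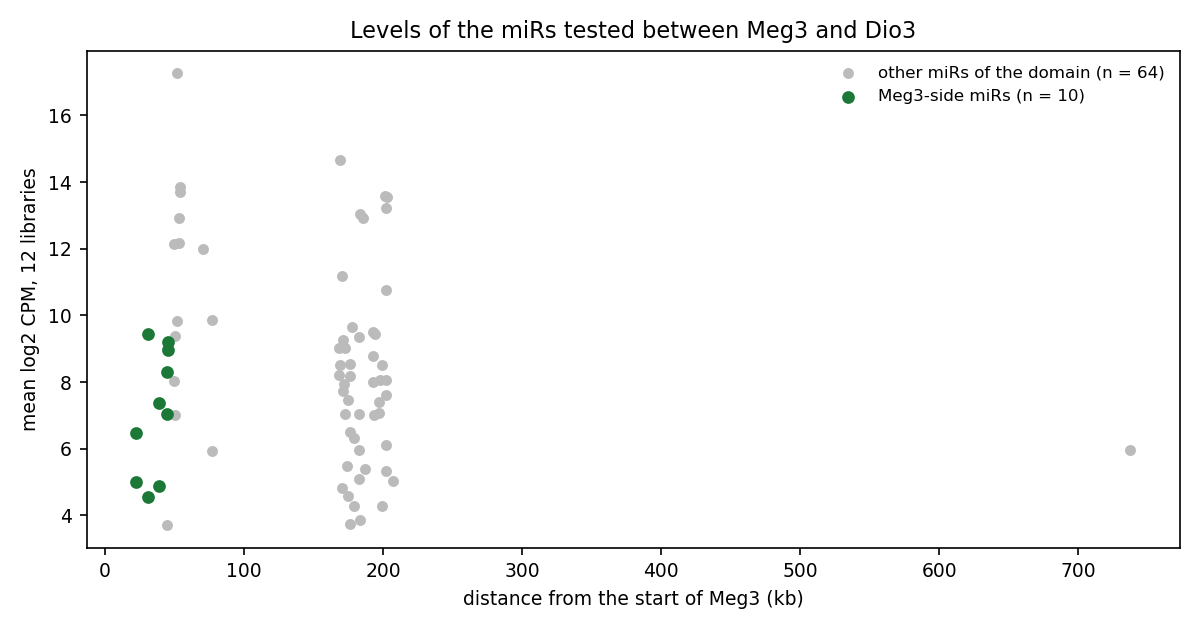
Mean log2 CPM over 12 libraries of the 74 tested miRs placed between Meg3 and Dio3 against the distance of each from the start of Meg3 in kb, with the 10 Meg3-side miRs in green and the other 64 in grey. Entries with joined names were not placed. The Meg3-side miRs lie between 4.54 and 9.45 on the log2 scale and the highest of the others, just downstream, is at 17.26.

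Among the 74 tested miRs placed between Meg3 and Dio3 by the exact name of their RefSeq entry, the Meg3-side miRs held ranks 20 to 69 by level. Entries with joined names were not placed, so some of the 52 tested miRs of the Mirg cluster are not among the 74. The median of the Meg3-side miRs was 7.21 on the log2 CPM scale, beside 8.13 for the other 64 placed miRs and 6.93 for all 388 miRs tested. The 10 miRs antisense to Rtl1, which start 4039 bases further on, had a median of 12.15 and include the most abundant of the 74, miR-127-3p, at 148408 CPM in WT. No test of these medians was run, since miRs of a domain are not independent of each other.

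The spread between fetuses of a genotype is given beside the spread that counting error alone would give, as a description with no test. In WT the libraries of replicates 1 to 5 held 254, 388, 385, 257 and 342 CPM of miR-337-5p, and in Mir483Pat-KO the lowest, median and highest were 285, 298 and 345 CPM. The coefficient of variation was 20.3% in WT, beside 5.70% expected from counting, and 7.97% beside 6.49% in Mir483Pat-KO. The WT libraries were spread to both sides of all 7 Mir483Pat-KO libraries. For miR-337-3p the coefficient was 8.86% in WT and 9.78% in Mir483Pat-KO, beside 8.86% and 10.1% from counting. miR-493-5p varied by 23.1% and 19.2%, beside 8.16% and 8.75%. Its levels were 118 to 201 CPM in WT libraries and 111 to 202 CPM in Mir483Pat-KO libraries. For miR-540-3p the coefficients were 9.88% and 12.4%, beside 4.47% and 4.49%. The lowest coefficient was that of miR-673-5p in WT, at 5.15% beside 4.01%, and that of miR-665-3p in Mir483Pat-KO, at 5.40% beside 5.09%. The coefficients of the 3 lowest miRs lay between 14.4% and 39.2%, apart from miR-770-3p in WT at 100%, with 18.6% to 25.6% from counting at their depth.

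miR-770-3p had no read in WT replicates 2 and 4. The reads of miR-770-3p were 23, 0, 30, 0 and 39 in WT replicates 1 to 5 and 29, 16, 27, 30, 25, 36 and 39 in Mir483Pat-KO replicates 1 to 7. From the other libraries of the genotype and the depth, 23.9 and 23.6 reads were predicted in the 2 libraries at 0, in which a count of 0 allows up to 3.09 and 3.20 CPM (3 counts, counting error only). Of all 1556 entries of the table predicted at 10 to 40 reads, 71 (4.56%) were at 0. No entry of the table is a 1, and the smallest nonzero entry is 2. The cause of the zeros was not tested. miR-770-5p, the other arm of the hairpin, had 87 and 78 reads in the same 2 libraries, inside the range of 58 to 87 reads of the WT libraries.

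The share of reads on the 5p arm ranged over the libraries without overlap between Mir673, Mir493, Mir337 and Mir540, while the range of Mir770 overlapped those of others. Mir673 was read almost wholly from its 5p arm, which held 94.9% to 98.6% of the hairpin's reads in the 12 libraries. Mir493 gave 79.0% to 90.2% and Mir337 63.2% to 75.2% from the 5p arm. Mir770 gave 59.8% to 77.2% in the 10 libraries with reads of both arms. Mir540 was split almost evenly, with 38.6% to 56.7% from miR-540-5p, and the arm with more reads was not the same in every library. Mir665 was read almost only from its 3p arm.

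No change of arm use with the genotype passed the test (two-sided exact permutation over 792 splits of the log2 ratio of 5p to 3p reads with 0.5 added, adjusted over 4 hairpins). Mir673 had 96.7% ± 1.05 (SD, n = 5) of its reads on the 5p arm in WT and 97.3% ± 1.16 (SD, n = 7) in Mir483Pat-KO (exact p = 0.304, adjusted p = 0.609). The Mir493 shares were 85.7% ± 3.33 in WT (SD, n = 5) and 85.5% ± 3.82 in Mir483Pat-KO (SD, n = 7), with an exact p of 0.928. The Mir337 shares were 70.7% ± 4.88 in WT (SD, n = 5) and 70.7% ± 1.95 in Mir483Pat-KO (SD, n = 7), with an exact p of 0.98. The adjusted p was 0.98 for both, and WT and Mir483Pat-KO overlapped widely. For Mir770 the log2 ratio was lower by 2.37 in Mir483Pat-KO (Mir483Pat-KO minus WT -2.37, exact p = 0.0972, adjusted p = 0.389), at 81.4% ± 18.1 (SD, n = 5) and 70.9% ± 4.06 (SD, n = 7), but this rests on the 2 WT libraries with no miR-770-3p read. Without them the WT share was 69.0% ± 8.76 (SD, n = 3) and the difference 0.11 (exact permutation over 120 splits, p = 0.742).

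**Figure D3:**
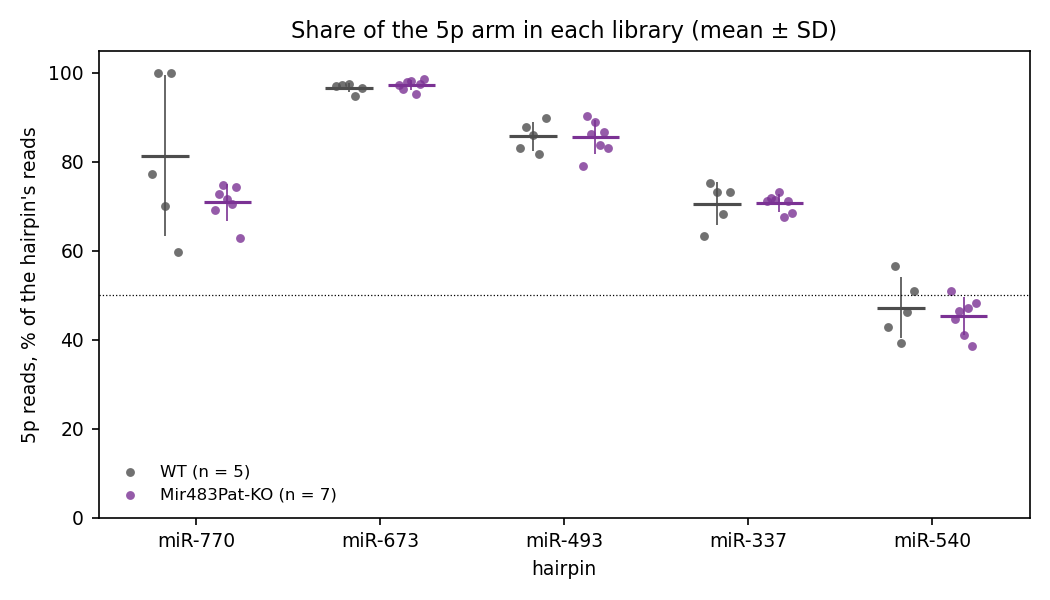
Share of each hairpin's reads on its 5p arm, in percent, for each WT (grey, n = 5) and Mir483Pat-KO (purple, n = 7) library, with mean ± SD and a dotted line at equal use. Mir673 is at 94.9% or more in each library and Mir540 lies on both sides of the line, and the 2 WT libraries at 100% for Mir770 are those with no miR-770-3p read.

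The genotype comparison asks whether loss of the paternally expressed Mir483, on another chromosome, goes with a change in these maternally expressed miRs. No member passed at an adjusted p under 0.05 in edgeR's quasi-likelihood test (Benjamini-Hochberg adjustment over the 388 miRs tested), where 8 miRs, 2.06%, were called. At an unadjusted p under 0.05 there were 2 of the 10 members, miR-540-3p and miR-673-5p, both higher in Mir483Pat-KO, beside 17.5% of all miRs in either direction and 9.54% in the higher direction. limma-voom called none of the members, beside 10 of all 388 miRs. At an unadjusted p under 0.05 it had 3 members, beside 69 of the 388. The member added there was miR-770-3p, which had no read in WT replicates 2 and 4. DESeq2 called 1 member, miR-540-3p, of the 27 miRs it called among the 281 to which it gave an adjusted p. It gave no adjusted p to miR-770-3p, miR-673-3p and miR-493-3p. In 0 of the 10 members did the genotypes not overlap, beside 2.84% of all miRs. By direction alone 7 members were higher and 3 lower, beside 50.3% higher of all miRs, and the median log2 fold change was 0.15 over the members and 0.0028 over all miRs. When a fetus was left out, the members' median ran from 0.069 (without Mir483Pat-KO replicate 7) to 0.18 (without WT replicate 2). The median was 0.088 without WT replicate 3. Within the lower range of animal numbers (4 WT and 4 Mir483Pat-KO fetuses) it was 0.022 and with the library index number in the model 0.0092, each with 5 members higher and 5 lower.

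miR-540-3p had the lowest p of the members. It was at 552, 455, 545, 573 and 477 CPM in WT replicates 1 to 5 and at 559.8, 606, 581, 730.4, 648, 774 and 608 CPM in Mir483Pat-KO replicates 1 to 7. Only the lowest Mir483Pat-KO library was below the highest WT library, so the groups overlapped at that one library. The WT mean was 520.3 ± 51.4 CPM (SD, n = 5) and the Mir483Pat-KO mean 644 ± 79.9 CPM (SD, n = 7). The log2 fold change was 0.31 with a standard error of 0.092 and a 95% interval of 0.11 to 0.50 (adjusted p = 0.0989, edgeR's quasi-likelihood test with Benjamini-Hochberg adjustment). DESeq2 gave 0.29 with an adjusted p of 0.0394. At an adjusted p under 0.1 miR-540-3p would be the 1 member called, beside 4.64% of all miRs. Its other arm, miR-540-5p, had a WT mean of 471 ± 93.0 CPM (SD, n = 5) and a Mir483Pat-KO mean of 531 ± 43.2 CPM (SD, n = 7), a log2 fold change of 0.17 (edgeR adjusted p = 0.471).

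miR-673-5p, the most abundant member, was at 641, 694, 665.6, 620.4 and 613 CPM in WT replicates 1 to 5, and its lowest, median and highest levels in Mir483Pat-KO were 673, 739.9 and 819.7 CPM. All 7 Mir483Pat-KO libraries were above 4 of the 5 WT libraries, and the groups overlapped through WT replicate 2. The log2 fold change was 0.18 (standard error 0.066, 95% interval 0.036 to 0.32), with an adjusted p of 0.185 by the same edgeR test. Its 3p arm had 12 to 31 reads in WT and 8 to 26 in Mir483Pat-KO, and its log2 fold change was -0.13 (standard error 0.29, edgeR adjusted p = 0.859).

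By the animal numbers in the labels, 4 WT and 4 Mir483Pat-KO fetuses belong to a lower range of numbers. The upper range holds 1 WT and 3 Mir483Pat-KO fetuses, too few to compare. Within the lower range miR-540-3p differed by 0.21 (adjusted p = 0.631, edgeR) and miR-673-5p by 0.11 (adjusted p = 0.668, edgeR) on the log2 scale, and no member had an unadjusted p under 0.05. WT libraries carry the index numbers 37 to 41 and Mir483Pat-KO libraries 42 to 48, so index order and genotype cannot be told apart between the groups. When the index number was added to the model, miR-540-3p differed by 0.12 and miR-673-5p by 0.093 on the log2 scale (adjusted p = 0.98 for both, edgeR). In that model 0 members had an unadjusted p under 0.05, beside 24 of the 388 miRs tested.

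**Figure D4:**
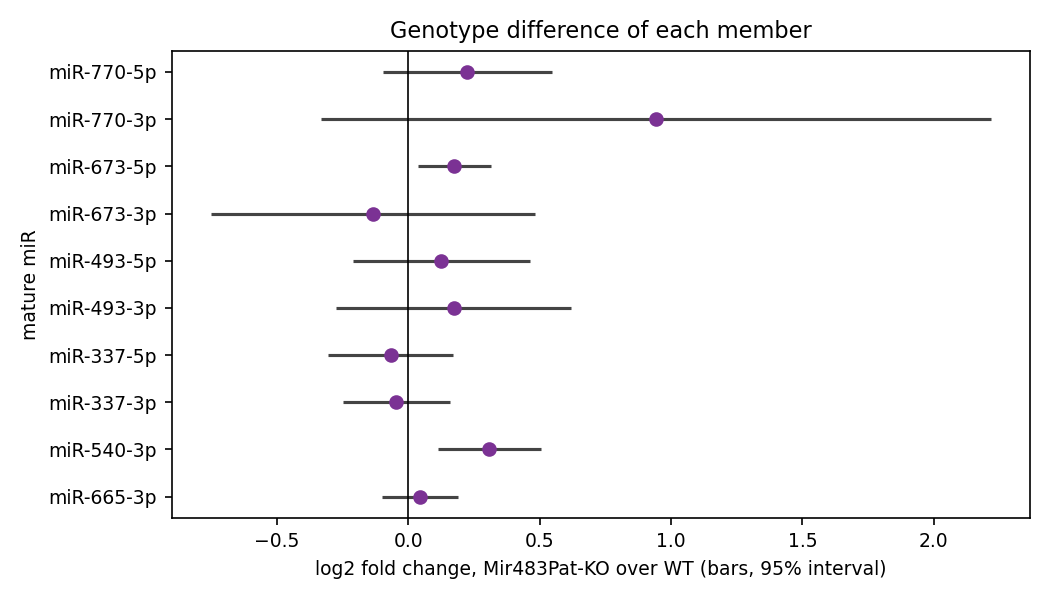
Log2 fold change of each Meg3-side miR, Mir483Pat-KO over WT, as a point with its 95% interval from edgeR's quasi-likelihood fit (5 WT and 7 Mir483Pat-KO libraries), before adjustment for the number of miRs tested. The intervals of miR-540-3p and miR-673-5p lie above 0, and miR-770-3p has the widest, from -0.33 to 2.22.

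The largest fold change was the least certain. The WT level of miR-770-3p was 19.8 ± 19.9 CPM (SD, n = 5) and the Mir483Pat-KO level 37.6 ± 9.13 CPM (SD, n = 7), a log2 fold change of 0.94 with a standard error of 0.60 (edgeR adjusted p = 0.476). Without the 2 WT libraries at 0 reads it was 0.19 (edgeR adjusted p = 0.816). miR-770-5p, read from the same hairpin, was at 78.4 ± 15.2 CPM (SD, n = 5) and 91.0 ± 16.2 CPM (SD, n = 7), and its log2 fold change was 0.23 (standard error 0.15, edgeR adjusted p = 0.482).

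The other 5 members did not pass the test, and their genotype means were closer than the spread between fetuses. miR-493-5p was at 156 ± 36.2 and 171 ± 32.8 CPM in WT (SD, n = 5) and Mir483Pat-KO (SD, n = 7), a log2 fold change of 0.13 with a 95% interval of -0.21 to 0.46. miR-493-3p was at 25.1 ± 3.62 and 28.4 ± 7.14 CPM, with 0.17 and an interval of -0.27 to 0.62. miR-337-5p averaged 325 ± 66.1 CPM in the WT fetuses (SD, n = 5) and 309.8 ± 24.7 CPM in the Mir483Pat-KO fetuses (SD, n = 7), and miR-337-3p 132 ± 11.7 and 128 ± 12.5 CPM. For these arms of Mir337 the log2 fold changes were -0.066 (interval -0.30 to 0.17) for miR-337-5p and -0.044 (interval -0.25 to 0.16) for miR-337-3p. miR-665-3p was at 487.4 ± 38.6 and 502 ± 27.1 CPM, with 0.046 and an interval of -0.098 to 0.19. Their adjusted p lay between 0.748 and 0.859 by edgeR.

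The other miRs of the domain were grouped by position, and their counts are given without a test between groups. Among the miRs antisense to Rtl1, 8 of 10 were higher, 1 was called (miR-136-5p, log2 fold change 0.48, adjusted p = 0.0309 by edgeR) and the median was 0.12. Of the Rian-region miRs, 3 of 3 tested were higher, with miR-370-3p called (0.68, adjusted p = 0.0194 by edgeR) and a median of 0.15. In the Mirg cluster 32 of 52 tested were higher, with miR-154-3p called (0.36, adjusted p = 0.0426 by edgeR) and a median of 0.075. At an unadjusted p under 0.05 there were 5, 2 and 11 miRs of these groups, beside 2 of the 10 Meg3-side miRs. miR-127-3p had a log2 fold change of 0.14 (adjusted p = 0.0760, edgeR).

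Whether the hairpins rose and fell together from fetus to fetus was examined on log2 levels with the genotype means removed. Of the 15 pairs of hairpins, 14 had a positive Pearson's r, with a median of 0.34, but none of these pairs, or of the 5 pairs of arms, passed the test (100000 permutations of libraries within genotype, adjusted over 20 pairs), and 0 of the 20 had an unadjusted p of r under 0.05. All pairs share each library's depth and scaling. The highest value, between Mir337 and Mir665, which lie within the same 619 bases, was r = 0.63 (permutation p = 0.0551, adjusted p = 0.340) and rho = 0.62 (permutation p = 0.0640, adjusted p = 0.407). It was 0.48 without the 2 libraries farthest from the median. Within the lower animal-number range r was 0.72, but there the genotype means were not removed, so it is not comparable with the other values. Over the 5 WT libraries alone r was 0.85 and over the 7 Mir483Pat-KO libraries alone 0.24. Mir770 and Mir665, the outermost hairpins, followed with r = 0.57 and rho = 0.38 (permutation p = 0.0757 and 0.251, adjusted p = 0.340 and 0.557). Their r was 0.43 without the 2 farthest libraries, 0.92 over the 5 WT libraries and 0.23 over the 7 Mir483Pat-KO libraries. The difference between the genotypes in r was not tested.

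The lone negative pair of hairpins was Mir337 and Mir540, although they lie 194 bases apart, with r = -0.40 and rho = -0.41 (permutation p = 0.189 and 0.186, adjusted p = 0.541 and 0.491). Here Mir540 is miR-540-3p alone, and miR-540-5p, with 46.2% of the hairpin's reads, was not included. The r of this pair was -0.44 without the 2 farthest libraries. Within the lower animal-number range it was -0.62, again with the genotype means not removed and so not comparable. It was -0.64 over the 5 WT libraries and -0.22 over the 7 Mir483Pat-KO libraries. Between the arms of 1 hairpin, r ran from -0.53 for Mir673 to 0.15 for Mir337 and was negative for 3 of 5. The arms of Mir540 had r = -0.51 and rho = -0.59 (permutation p = 0.0808 and 0.0496, adjusted p = 0.340 and 0.407), the one unadjusted p of rho under 0.05. The arms of Mir770 had r = -0.22 over all libraries, -0.46 over the 5 WT libraries and 0.64 over the 7 Mir483Pat-KO libraries, all 7 of which held reads of both arms. For miR-770-3p, miR-673-3p and miR-493-3p, counting error alone is 18.6% to 25.6% of the level, and its part in these values was not tested.

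**Figure D5:**
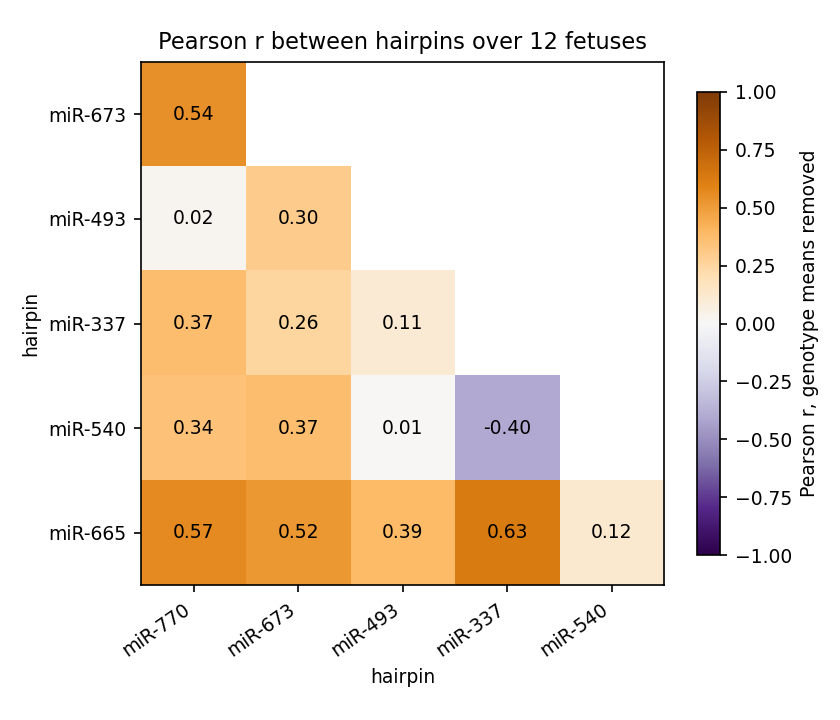
Pearson's r over 12 libraries between the hairpins of each pair, with genotype means removed, on a color scale from -1 to 1. The level of a hairpin is the log2 of the scaled sum of the counts of its member arms. Mir337 and Mir540 give the only negative value, -0.40, and Mir337 and Mir665 the highest, 0.63.

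Of the other tested miRs, 280 averaged at least 5 on the log2 CPM scale. Among these, the 5 whose levels over the 12 libraries were most like the summed Meg3-side miRs were miR-541-5p (r = 0.73), miR-16-5p (0.71), miR-20a-5p (0.70), miR-411-3p (0.68) and miR-431-3p (0.68), with genotype means removed. Over the 280, r ran from -0.89 to 0.73 with a median of 0.034, and 150 were positive. miR-541-5p, miR-411-3p and miR-431-3p are also miRs of the domain, whereas miR-16-5p and miR-20a-5p come from clusters elsewhere. These likeness values are given as a description, since they are the highest of 280 and all points share depth and scaling.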

How the data were processed

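miR-seq was done on livers of 5 WT and 7 Mir483Pat-KO fetuses. Libraries were made by the authors from total RNA (TruSeq Small RNA), who counted reads per mature miR with miRge 3.0, and they deposited these whole-number counts without normalization or pooling. The miR reference and adapter trimming are not given in the sources used here. Columns were assigned to fetuses by the animal number in their names.

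miRs were kept by filterByExpr (minimum count 10, minimum total 15), scaled by TMM and tested between genotypes by edgeR's quasi-likelihood method (edgeR 4.0.16, glmQLFit with legacy = TRUE, R 4.3.3), with Benjamini-Hochberg adjustment over the 388 miRs tested, and called at an adjusted p under 0.05. Levels are TMM CPM computed from the deposited counts, with SD over fetuses. Log2 levels for correlations and the order used a prior count of 2. Each fetus is 1 library, so p-values measure the spread between fetuses. Litter was not in any model, and fetuses of a litter are not independent of each other. Chi-square per degree of freedom was 5.11 to 37.8 over the 31 pairs of libraries of a genotype, and no pair of libraries agreed within sampling noise. Floors of 3 counts (2.57 to 4.67 CPM) cover counting error only. The intervals of the log2 fold changes use the standard error of edgeR's quasi-likelihood fit, which includes the spread between fetuses.

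The alternatives were DESeq2 1.42.0, limma-voom (limma 3.58.1), edgeR 4's own dispersion, other scalings (upper-quartile, RLE, library size alone, TMM without miR-483), other filters (none, or 10 counts in every library), models with a block for the replicate number, the animal-number range or the index number, a threshold of 0.1, pseudocounts of 1 and 2 for the arm ratios and leaving out each fetus in turn. Fits without the 2 libraries lacking miR-770-3p and, for fold changes, on the lower animal-number range alone were added after the values were seen. The code was tested on simulated counts.

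The members and the lists of neighbouring miRs were chosen with earlier results of these data known. Named are all members, the 5p arms of Mir540 and Mir665, miR-483, miR-127-3p, the 5 miRs most like the members' sum and from each neighbouring list the miR with the lowest p. miR-3544-3p and the miRs that share a seed were named for their sequence, and the marker miRs for the cell types. Sequences are from RefSeq (GRCm38.p6) and gene positions from GENCODE (GRCm38), the build in the labels. The mRNA libraries were not analysed here.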

Additional observations from a re-analysis of the deposited data

How the results depend on the processing

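The number of members called stayed at 0 under the alternatives run, except 1 with DESeq2 and 1 at an adjusted p under 0.1, in both cases miR-540-3p. Leaving out each fetus in turn left it at 0, with adjusted p from 0.0693 to 0.266 for miR-540-3p and log2 fold changes from 0.24 to 0.34 (edgeR). Over all miRs tested the count of 8 calls of 388 became 27 of 281 with DESeq2, 14 with library size alone, 18 at 0.1, 3 with the index number in the model, 5 with the animal-number range as a factor, 2 in the lower range alone, 3 of 395 without the libraries lacking miR-770-3p and 3 to 12 when a fetus was left out (373 to 402 tested).

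The fold changes of 5 members changed direction in at least 1 alternative, none of them past the threshold. miR-665-3p went to -0.024 with library size alone, -0.098 with the index number and -0.025 in the lower range. miR-493-5p was -0.40 with the index number, miR-493-3p -0.26 with the index number and -0.13 in the lower range, and miR-337-3p 0.021 with the index number and -0.082 to 0.0010 when a fetus was left out (0.0010 without WT replicate 1). miR-673-3p was -0.32 to 0.054 when a fetus was left out (0.054 without WT replicate 4) and 0.061 without the libraries lacking miR-770-3p. miR-770-3p fell to 0.16 with the index number and rose to 2.61 in limma-voom.

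The difference in log2 arm ratio reversed for Mir770 without the libraries lacking miR-770-3p (0.11). In the lower range it was 0.21 for Mir493 and 0.12 for Mir337. Leaving out a fetus gave -0.13 to 0.11 for Mir493, -0.13 to 0.076 for Mir337, 0.16 to 0.49 for Mir673 and -3.15 to -1.43 for Mir770, and none passed the test. The order of the levels was the same under 8 of 13 alternatives.

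The fetuses that share a replicate number are different animals. Their deviations from the genotype means correlated at 0.13, 0.15, -0.038, 0.11 and 0.55 for numbers 1 to 5 (over 287 miRs), so the numbers were not taken to pair the fetuses. With the replicate number as a block the members' median log2 fold change was 0.036, 0 members and 3 of all miRs were called, miR-540-3p had a log2 fold change of 0.24 (edgeR adjusted p = 0.339), miR-665-3p was -0.015, and the arm ratio differences were 0.010 for Mir493 and 0.018 for Mir337. With 5 pairs the arm-ratio test cannot pass the threshold. Depth limits miR-770-3p, miR-493-3p and miR-673-3p most, at 0 to 39 reads per library.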
